A study of Mus musculus with 4 samples.

Results

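The HOX gene clusters are 4 groups of neighbouring homeobox genes, and 73 of the 30437 chromatin loops called in mouse granulosa cells had an anchor at one of them. A loop was counted as a HOX loop when either of its anchors lay within 10 kb of the annotated body of any of 38 Hox genes in build mm10. The genes were 10 of HoxA (chr6:52162417-52260880), 10 of HoxB (chr11:96194316-96368254), 9 of HoxC (chr15:102921131-103036856) and 9 of HoxD (chr2:74668225-74765142). No loop had both anchors at HOX genes, so each of the 73 loops had a HOX anchor and a partner anchor outside the cluster.

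The loops came from Micro-C, in which chromatin is cut with micrococcal nuclease, joined and sequenced in pairs, so that sites close together in the nucleus are read as contacts. The granulosa cells, the hormone-producing cells around the oocyte, were taken from punctured ovaries of 21-day-old mice that had all been given eCG, or PMSG (equine chorionic gonadotropin, 5 IU), a hormone that makes follicles grow. The hCG group then received 5 IU of human chorionic gonadotropin (hCG), a substitute for the ovulatory surge of luteinizing hormone, and was collected 6 h later, whereas the PMSG group is labelled 0 h after hCG. Each group had 2 libraries, and strain and genotype are not stated in the labels used here. The interval on eCG is given as 46 h in 1 label and as 44 h in another. The labels do not say whether the libraries came from separate mice, so p-values measure only the spread between these libraries, which may be technical.

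HOX proteins are transcription factors that give cells their position along the body axis. The genes of a cluster are numbered by paralog group, and those at the group 1 end are switched on earlier and further forward in the embryo than those at the group 13 end. In the female reproductive tract Hoxa9, Hoxa10, Hoxa11 and Hoxa13 pattern the oviduct, uterus, cervix and vagina. Contacts of the clusters with distant regulatory DNA have been studied most in the limb, where HoxD lies between a pair of gene-poor regions that hold its enhancers, and inactive clusters are typically covered by Polycomb proteins.

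Promoters at the HOX side of loops called in every library are printed here to show that DNA. Of 24 promoters, of 22 genes, that lay inside the HOX anchor of such a loop in at least 1 library, 5 are given, from the ends and the middle of HoxD and HoxA. The sequences are RefSeq promoters of GRCm38.p6, the assembly of mm10, from 250 bases before to 50 bases after the annotated start, written 5′ to 3′ on the strand of the gene. Capitals mark a match to AGGGGGC, the core of the motif bound by the loop-anchor protein CTCF, searched on both strands. This spelling was kept after others had been tried.

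Hoxd13, chr2:74667975-74668274, plus strand: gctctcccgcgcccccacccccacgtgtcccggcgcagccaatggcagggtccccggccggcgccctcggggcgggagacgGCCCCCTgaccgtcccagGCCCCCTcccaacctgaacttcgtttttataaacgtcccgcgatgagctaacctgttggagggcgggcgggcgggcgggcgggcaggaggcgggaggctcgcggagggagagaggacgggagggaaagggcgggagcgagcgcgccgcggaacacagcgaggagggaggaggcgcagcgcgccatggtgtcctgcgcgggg

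Hoxd8, chr2:74704365-74704664, plus strand: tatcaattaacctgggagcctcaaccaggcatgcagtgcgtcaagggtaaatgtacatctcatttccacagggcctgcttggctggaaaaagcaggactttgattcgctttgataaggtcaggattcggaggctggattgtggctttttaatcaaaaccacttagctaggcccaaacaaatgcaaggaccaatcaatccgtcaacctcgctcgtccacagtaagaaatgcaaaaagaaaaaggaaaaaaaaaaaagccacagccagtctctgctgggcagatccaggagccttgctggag

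Hoxd3os1, chr2:74716081-74716380, minus strand: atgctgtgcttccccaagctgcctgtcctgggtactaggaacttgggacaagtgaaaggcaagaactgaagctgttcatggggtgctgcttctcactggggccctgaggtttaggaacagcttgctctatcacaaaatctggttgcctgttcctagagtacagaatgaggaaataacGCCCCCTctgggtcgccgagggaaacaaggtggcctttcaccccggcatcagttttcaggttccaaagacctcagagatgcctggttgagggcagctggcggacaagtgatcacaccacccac

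Hoxa9, chr6:52227321-52227620, minus strand: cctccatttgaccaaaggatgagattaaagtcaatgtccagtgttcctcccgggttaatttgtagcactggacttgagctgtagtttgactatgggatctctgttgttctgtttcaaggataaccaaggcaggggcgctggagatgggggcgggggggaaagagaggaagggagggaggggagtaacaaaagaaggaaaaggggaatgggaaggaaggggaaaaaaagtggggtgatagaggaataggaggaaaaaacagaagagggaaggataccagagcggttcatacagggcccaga

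Hoxa13, chr6:52260831-52261130, minus strand: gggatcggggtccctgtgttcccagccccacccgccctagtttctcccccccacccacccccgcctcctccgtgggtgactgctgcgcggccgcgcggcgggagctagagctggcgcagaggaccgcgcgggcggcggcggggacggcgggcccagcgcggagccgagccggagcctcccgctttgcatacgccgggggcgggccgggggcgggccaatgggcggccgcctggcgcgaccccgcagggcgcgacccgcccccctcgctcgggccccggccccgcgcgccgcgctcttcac

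The Hoxd13 promoter lay inside the HOX anchors of 7 loops from 3 libraries, 5 of them calls of loops in all lists. The Hoxd8 promoter lay inside 12 anchors from 4 libraries, 10 of them of loops in all lists, and that of Hoxd3os1, an RNA gene antisense to Hoxd3, inside 10 anchors from 4 libraries, 9 of them of loops in all lists. At HoxA, the Hoxa9 promoter lay inside 6 anchors from 3 libraries, 5 of them of loops in all lists, and the Hoxa13 promoter inside 4 anchors from 3 libraries, of which 1 was of a loop in all lists. The Hoxd13 window held the core motif 2 times, read on the opposite strand as GCCCCCT from positions 82 and 100 of the printed sequence, the Hoxd3os1 window 1 time in the same reading from position 178, and the other 3 windows held none. Among 24 promoters listed for 22 of the 38 HOX genes, 2 (of Hoxd13 and Hoxa10) held the core, against 10.6% of 32851 promoters in the RefSeq table. A longer and rarer spelling of the CTCF motif was found in 0 of these 24 promoters, against 2.43% of the 32851. The printed windows, those of Hoxd13 and Hoxd3os1 included, each held it 0 times. A match is a string of letters and not a measured binding site. The Hoxa13 promoter was 81% G and C, against 46.7% for Hoxd8 and a median of 52.7% over all promoters.

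The lists held 7664 and 7935 loops in the hCG libraries, against 8305 and 6533 in the PMSG libraries. The contacts counted at called pixels came to 311016 and 349717 in the hCG libraries, against 393852 and 272470 in the PMSG libraries, and the median pixel held 32 and 34 contacts, against 36 and 32. A pixel is the pair of bins, of 5, 10 or 25 kb, that a loop joins. Loops were called in each library separately, so a loop can be absent from a list because its pixel fell short of the caller's thresholds in that library. Intervals from counts cover counting error only, since contacts can include PCR copies. The lists hold contacts and not expression, so the cell type label was looked at only through loops at marker genes: 7 of 12 granulosa markers had a loop within 10 kb in all 4 libraries, against 28.1% of all protein-coding genes, as did 4 of 8 theca and stroma markers, 2 of 4 endothelial markers, 0 of 4 immune markers and 1 of 4 oocyte markers. The granulosa transcription factor gene Foxl2 had 4 and 3 loops in the hCG libraries, against 4 and 2 in the PMSG libraries.

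HoxA and HoxD held most of the HOX loops. HoxD had 6 and 9 loops in the hCG libraries, against 7 and 7 in the PMSG libraries, and HoxA had 8 and 6, against 7 and 5. HoxB had 3 and 3 loops in the hCG libraries, against 2 and 1 in the PMSG libraries. HoxC had 2 and 3, against 3 and 1. In every library HoxA and HoxD each had more loops than HoxB or HoxC, although HoxB, at 173.9 kb, is the longest of the 4 clusters and HoxD, at 96.9 kb, the shortest.

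**Figure D1:**
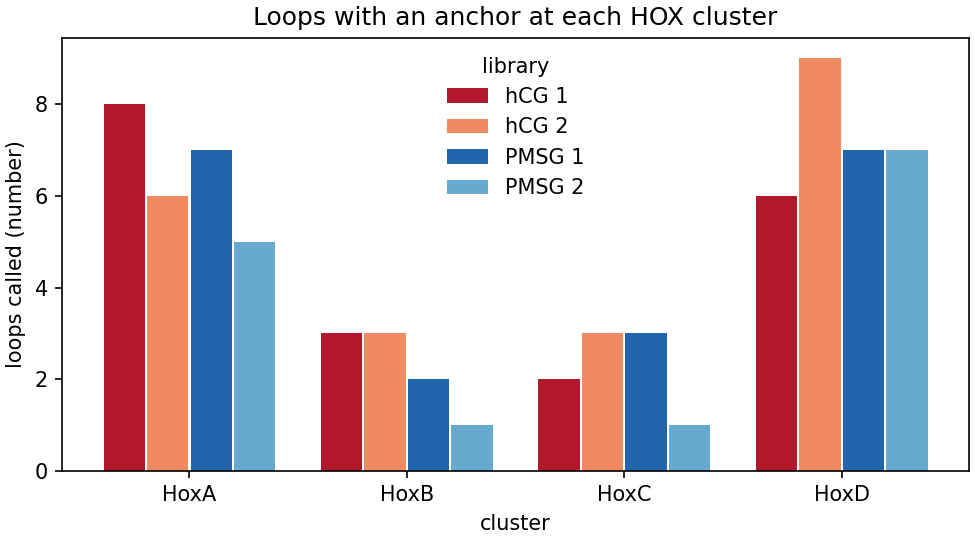
Number of loops (vertical axis) with an anchor within 10 kb of a HOX gene, for each cluster (horizontal axis) and library (bar colours). HoxA had 5 to 8 loops per library and HoxD 6 to 9, while HoxB and HoxC had 1 to 3.

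Loops of different lists were taken as the same distinct loop when both anchor midpoints lay within 20 kb, which joined the 73 HOX loops into 30. Of these, 12 (40%) were called in all 4 lists, against 29.9% of all 12920 distinct loops. A further 2 HOX loops were in 3 lists, 3 were in 2 lists and 13 (43.3%) were in 1 list, against 39.97% of all distinct loops in 1 list. The share of HOX loops found in all lists was above the background and the share found in 1 list was near it. With midpoints matched within 10 kb the share in all lists was 12.8% for HOX loops, against 22.5% of all, and at an FDR of 0.01 it was 19.2%, against 19.7%, so it was below the background under both of these settings. By cluster, 6 of 11 distinct loops were in all 4 lists at HoxD, 4 of 10 at HoxA, 1 of 4 at HoxC and 1 of 5 at HoxB. None of the 30 was gained with hCG, meaning present in the hCG lists and absent from the PMSG lists, where 5.05% of all distinct loops were gained. None was lost, the reverse pattern, where 3.8% of all were lost.

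At HoxD, loops left the cluster on both sides. The strength of a loop is given here as the contacts observed at its pixel over the contacts expected from a donut of surrounding pixels, without unit. This ratio runs higher in smaller bins, and the bins of a loop can differ between libraries. In a bulk population, fewer cells with a contact and a weaker contact per cell cannot be told apart. Partner anchors are said to lie at a noncoding gene when overlapping it or within 2.5 kb of either end. Noncoding genes here are those of long noncoding RNAs and microRNAs.

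On the side of the group 13 end, the region of Hoxd13 and its neighbour Evx2 was joined to a pair of sites with no protein-coding gene. Hoxd13 is needed for digits and the genital tubercle, and Evx2 is a homeobox gene next to it. The nearer of these sites, 360 kb away at chr2:74300001-74305000, lay at the noncoding gene 4930441J16Rik. Its ratio was 5.15 and 5.14 in the hCG libraries, against 8.79 and 6.19 in the PMSG libraries, where only the first PMSG value came from 5 kb bins and the others from 10 kb bins. Both hCG values were below both PMSG values. The counts behind them were 16 and 19 contacts in the hCG libraries, against 16 and 22 in the PMSG libraries. The further site, 595 kb away at chr2:74065001-74070000, had a ratio of 7.40 and 6.41 in the hCG libraries, against 8.30 and 5.67 in the PMSG libraries. The groups overlapped there, with both hCG values between the PMSG values.

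On the side of the group 1 end, the stretch from Hoxd9 to Hoxd3 was joined to 4 sites that were called in every list. Hoxd9 and Hoxd10 act in the limb and in the lumbar spinal cord, and Hoxd3 in the upper vertebrae. The nearest site, 245 kb from the bin that holds the Hoxd3os1 promoter at chr2:74960001-74965000, lay at no protein-coding or noncoding gene. Its ratio was 5.23 and 9.72 in the hCG libraries, against 8.91 and 8.36 in the PMSG libraries, and the low hCG 1 value was the only one from 10 kb bins, with its HOX anchor at Hoxd8. The next site lay 350 kb away at chr2:75060001-75070000, at the noncoding gene Gm46748. Its ratio was 5.00 and 5.33 in the hCG libraries, against 3.73 and 5.59 in the PMSG libraries, all in 10 kb bins. The groups overlapped at both sites.

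The third site on that side was called in hCG 1 at chr2:75150001-75155000, at the noncoding gene 2600014E21Rik and 450 kb from the bin between Hoxd9 and Hoxd8. The other libraries placed it at or within chr2:75130001-75140000, which also lay at the noncoding gene Gm13652, with spans of 420 to 435 kb. Its ratio was 10.9 and 8.82 in the hCG libraries, against 5.40 and 6.45 in the PMSG libraries. The hCG values were higher, but they came from 5 kb bins with 14 and 13 contacts and the PMSG values from 10 kb bins with 38 and 23 contacts, so that bin size and group cannot be told apart in these ratios. The 95% Poisson interval of the hCG 1 ratio ran from 5.97 to 18.3. The farthest of the 4, at chr2:75580001-75590000 inside Gm50595, lay 880 kb away and had a ratio of 4.77 and 8.40 in the hCG libraries, against 5.08 and 6.89 in the PMSG libraries. The 8.40 came from 10 kb bins and the others from 25 kb bins.

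The other 5 HoxD loops were each in 1 list. In hCG 2 the Hoxd13 side was joined to a site at noncoding genes 700 kb away (ratio 2.84). It was also joined in hCG 2 to Chn1, which codes for the Rac GTPase-activating protein chimerin, 875 kb away (ratio 4.16). Hoxd8 was joined in that library to a site 610 kb away with a ratio of 7.32. In PMSG 2 the Hoxd3 side was joined to the phosphodiesterase gene Pde11a over 1400 kb, with 20 contacts against 4.44 expected. In PMSG 1 an anchor nearest to Hoxd10 was joined to Sp9, a zinc finger gene, over 1425 kb, the longest HOX loop, with 25 contacts against 4.74 expected.

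At HoxA, the partners on the group 1 side lay in Skap2, in Snx10 and beyond. Skap2 codes for an adaptor of Src-family kinases and Snx10 for a sorting nexin of endosomes. The Skap2 loop in all lists joined chr6:52210001-52220000, at Hoxa7, to chr6:51870001-51880000 over 340 kb. Its ratio was 7.59 and 3.79 in the hCG libraries, against 4.09 and 4.09 in the PMSG libraries, so the 2 hCG libraries lay on either side of both PMSG libraries. A nearer anchor in Skap2, 220 kb from Hoxa9, was called in 3 lists, with a ratio of 5.45 and 2.65 in the hCG libraries, against 2.84 in PMSG 2 and no call in PMSG 1. The loop of 640 kb from Hoxa9 to the gene end of Snx10 (chr6:51580001-51590000) had a ratio of 4.66 and 3.55 in the hCG libraries, against 3.42 and 7.94 in the PMSG libraries. The 7.94 rested on 13 contacts in 10 kb bins, with a 95% Poisson interval of 4.23 to 13.6, and the others on 25 kb bins.

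The longest HoxA loop ran 1050 kb from Hoxa9 to chr6:51170001-51180000, where the 10 kb bin of hCG 2 lay at no protein-coding or noncoding gene. In the other 3 libraries the partner bin was chr6:51175001-51200000, which lay at the noncoding gene Gm32403. The loop had 89 and 30 contacts in the hCG libraries, against 111 and 42 in the PMSG libraries, and a ratio of 6.33 and 7.34, against 4.44 and 4.38. Both hCG ratios were above both PMSG ratios; the hCG 2 value came from 10 kb bins and the other 3 from 25 kb bins. Its partner anchor carried 3 and 3 further loops in the hCG libraries, against 5 and 2 in the PMSG libraries.

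On the group 13 side, HoxA contacted the genes that follow Hoxa13, a regulator of limb and urogenital development. The loop in all lists joined the Hoxa13 region to Jazf1, which codes for a zinc finger protein, over 560 kb (chr6:52270001-52280000 to chr6:52830001-52840000). Its ratio was 4.52 and 4.45 in the hCG libraries, against 4.59 and 6.51 in the PMSG libraries, so both hCG values were below both PMSG values, and the closest pair of values across the groups differed far less than the 2 PMSG values did. The hCG 1 value came from 25 kb bins and the other 3 from 10 kb bins. A further anchor in Jazf1, 660 kb from the Hoxa13 region, was called in hCG 1 at a ratio of 7.09 and in PMSG 1 at 3.90, and in neither other library. The valine catabolism gene Hibadh was likewise joined to the Hoxa13 region in hCG 1 and PMSG 1, at 3.42 and 3.24. In hCG 1 a loop reached Tax1bp1, an autophagy receptor gene (ratio 2.77), and in hCG 2 the shortest HOX loop, of 50 kb, joined Hoxa13 to Evx1, the homeobox gene next to it, with 34 contacts against 13.6 expected. In PMSG 1 Hoxa2, which patterns the branchial arches, was joined to Skap2 (ratio 2.27).

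At HoxB, 1 loop was in all lists. It joined Hoxb9, a thoracic patterning gene, to Skap1, which codes for a T cell adaptor related to that of Skap2, over 280 kb (chr11:96270001-96280000 to chr11:96550001-96560000). Its ratio was 2.64 and 4.47 in the hCG libraries, against 3.52 and 5.32 in the PMSG libraries, and the groups overlapped. The low hCG 1 value was the only one from 25 kb bins. A further anchor in Skap1 was called in hCG 1 alone (350 kb, ratio 4.76). Hoxb7 was joined to Copz2, a gene for a coat protein of transport vesicles, over 575 kb in hCG 1 and PMSG 1, at 3.85 and 3.38. In hCG 2 alone, both Hoxb13, best known from the prostate, and Hoxb3 were joined to the anchor that holds the RNA-binding protein gene Igf2bp1 and the incretin gene Gip, at 1.91 and 2.89.

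At HoxC, the loop in all lists ran 185 kb from the interval between Hoxc9 and Hoxc8 to an end of Smug1, a DNA repair glycosylase gene (chr15:102985001-102990000 to chr15:103170001-103175000). Hoxc8 and Hoxc9 pattern the thoracic vertebrae and motor neurons. Its ratio was 5.88 and 6.98 in the hCG libraries, against 3.62 and 4.57 in the PMSG libraries, with no overlap of the groups. The contacts were 20 and 29 in the hCG libraries, against 22 and 30 in the PMSG libraries, and the expected counts were 3.40 and 4.15, against 6.08 and 6.56. The PMSG 2 value came from 10 kb bins and the other 3 from 5 kb bins. The Hoxc12 and Hoxc13 bin, chr15:102925001-102950000, was joined in 3 lists to a site 175 kb away at the noncoding gene Gm36560. The ratio was 2.79 and 2.52 in the hCG libraries, against 2.71 in PMSG 1. Hoxc13 is needed in hair and nails. The last 2 HoxC loops were in 1 list each, one in PMSG 1 over 135 kb (ratio 3.68) and one in hCG 2 over 325 kb to the anchor of Gpr84, Zfp385a and Copz1 (ratio 3.39).

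Over the 12 HOX loops in all lists, both hCG ratios were above both PMSG ratios at 3, against 26.8% of all loops in all lists, and both were below at 2, against 12.7% of all. Neither count was far from its background.

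**Figure D2:**
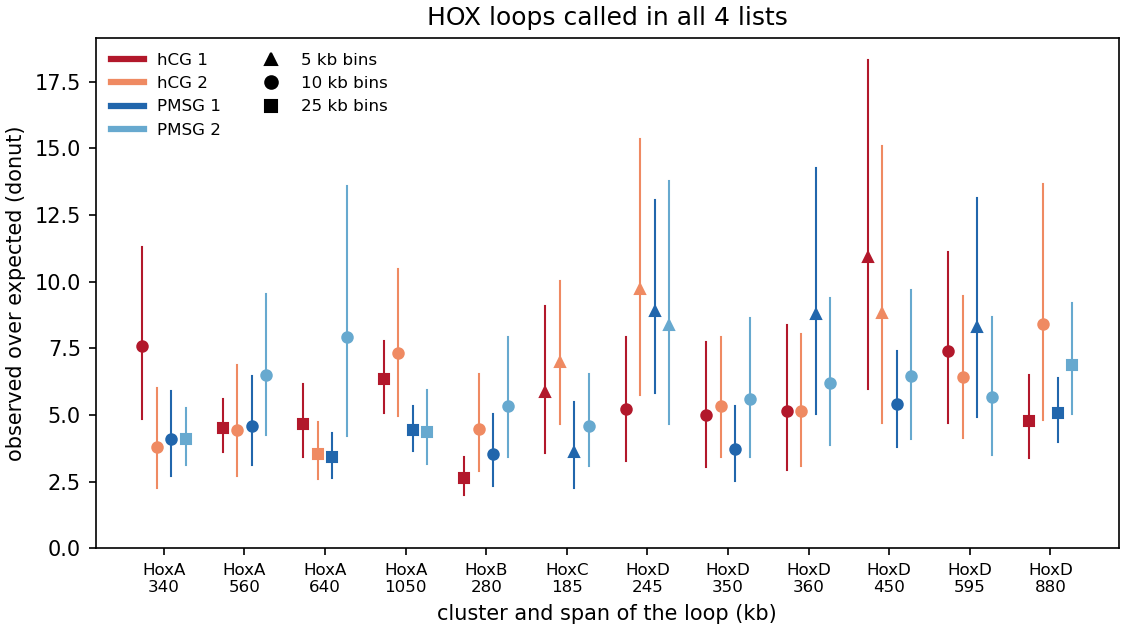
Contacts observed over expected from the donut neighbourhood (vertical axis, no unit) at the 12 HOX loops called in all 4 lists, named by cluster and span in kb (horizontal axis). Colours are libraries, marker shapes bin sizes and lines 95% Poisson intervals of the observed count. Values ran from 2.64 to 10.9, and the groups overlapped at all but 5 loops, of which 3 had both hCG values above both PMSG values (HoxA 1050 kb, HoxC 185 kb, HoxD 450 kb) and 2 had both below (HoxA 560 kb, HoxD 360 kb).

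The side on which a loop left the cluster followed the position of its HOX anchor. Of 24 loops whose anchor was nearest to a gene of groups 11 to 13, 24 ended beyond the group 13 end, with 7 and 8 in the hCG libraries, against 6 and 3 in the PMSG libraries. Of 49 loops whose anchor was nearest to a gene of groups 1 to 10, 47 ended beyond the group 1 end. By library these were 12 of 12 and 12 of 13 in the hCG libraries, against 12 of 13 and 11 of 11 in the PMSG libraries. The 2 exceptions were the hCG 2 loop from Hoxb3 towards Igf2bp1 and Gip and the PMSG 1 loop from the Hoxd10 side to Sp9. This split was noticed in these data and is given with no test, and many of the loops share anchors.

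**Figure D3:**
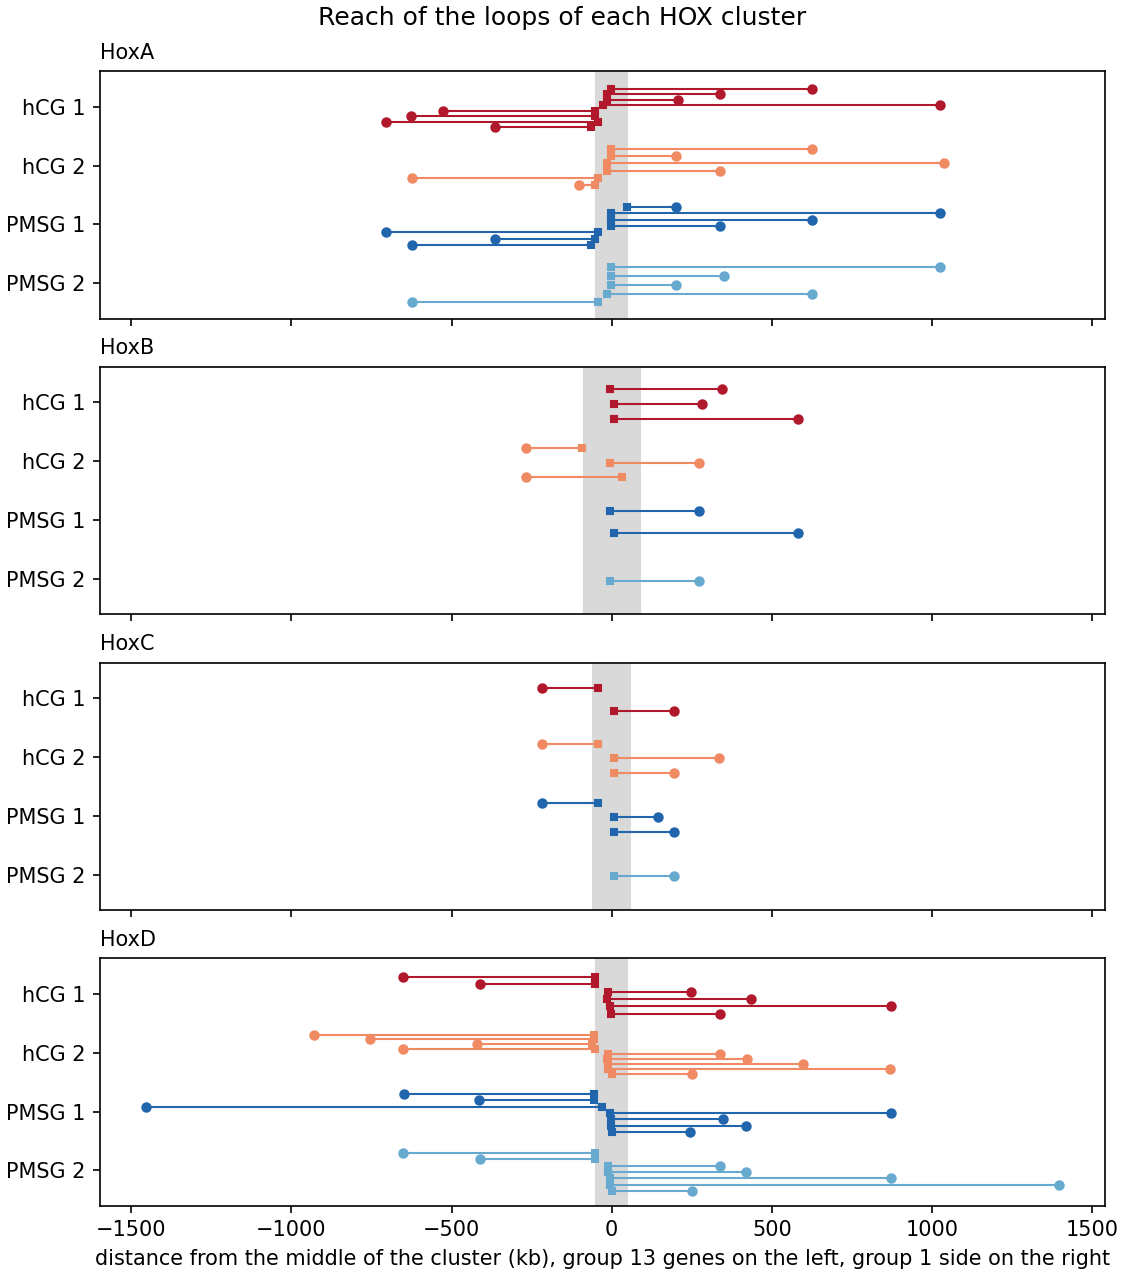
Each line is a HOX loop drawn from its HOX anchor (square) to its partner (circle), as distance in kb from the middle of the cluster (horizontal axis), with a row of lines per library and the genes of the cluster shaded. Clusters are turned so that group 13 lies on the left. At HoxA and HoxD loops left on both sides in all 4 libraries, and lines from the group 11 to 13 end ran to the left.

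Within the clusters, 33 of the 38 genes had an anchor within 10 kb in at least 1 library, and 23 (60.5%) had one in all 4 libraries, against 28.1% of 21631 protein-coding genes. Of the 38, 27 (71.1%) were at a loop called in all 4 lists, against 28.6% of protein-coding genes, and 0 were at a gained or a lost loop, against 5.41% and 3.83%. HOX genes lie so close together that a single anchor counts for several of them, so these shares are not 38 separate observations. To be at a loop called in all 4 lists, a gene had to be near its anchor in only 1 list. Hoxb3, Hoxb5, Hoxb6 and Hoxc10 thus count among the 27, although each had no anchor within 10 kb in at least 1 library. The 5 genes with no loop were Hoxb1, Hoxb2, Hoxc4, Hoxc5 and Hoxd1, all towards the group 1 end of their clusters. Hoxa10, which is needed in the uterus for implantation, had the most loops within 10 kb, with 7 and 5 in the hCG libraries, against 3 and 5 in the PMSG libraries. Only 1 of these 20 loops had an anchor that overlapped Hoxa10 itself. Hoxd8 followed with 4 and 5 loops in the hCG libraries, against 5 and 5 in the PMSG libraries, and its body was overlapped by 12 of the 19. Hoxd9 had 4 loops in every library. Hoxa13 had 5 and 2 in the hCG libraries, against 3 and 1 in the PMSG libraries.

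The HOX anchor itself overlapped a HOX gene in 64 of the 73 loops. The farthest anchors inside the limit were 9.12 kb from Hoxa13, in hCG 1 (20 contacts against 5.84 expected) and PMSG 1 (32 against 6.97). The nearest anchors outside it lay 31.3 kb from a HOX gene, inside the HoxB span, in hCG 1 (29 contacts against 7.30), in PMSG 1 (36 against 9.14, and 17 against 3.999) and in PMSG 2 (13 against 2.05). No anchor lay between these distances.

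HOX anchors carried several loops each. Every loop end was counted as an anchor here, so a site shared by several loops counts once for each of them. This holds for HOX and other anchors, and weights the values of both towards shared sites. The median HOX anchor had 4 and 4 loops within 20 kb of it in the hCG libraries and 3 and 4 in the PMSG libraries, and the median anchor of the other loops had 2 and 2 in the hCG libraries and 2 and 1 in the PMSG libraries. The share of HOX anchors with at least 4 loops was 57.9% and 61.9% in the hCG libraries, against 21.1% and 64.3% in the PMSG libraries, and that of other anchors was 4.98% and 5.31%, against 5.83% and 3.15%. PMSG 1 stood below the other 3 libraries in the HOX share. These anchors lie at 4 loci and were not tested. Of the 73 partner anchors, 48 held a loop of the same list other than a HOX loop, with a median of 1 and up to 5. The same share was not computed for other anchors. The medians of 2 or 1 loops given above for those anchors include the loop itself. Sharing is therefore not shown to be particular to the partners of HOX loops. The 30 distinct loops ended at 28 separate partner sites, since a pair of HoxB loops and a pair of HoxA loops had overlapping partner anchors. Taking each loop in its smallest bins, 19 of the 30 had their partner in the body of a protein-coding gene, 10 had an end of such a gene within 2.5 kb of it, and 10 had neither. The shares over all loop anchors were not computed, so these counts have no background and are not shown to be unusual.

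Loops that passed over a whole cluster were rare. In PMSG 1, 1 loop of 1140 kb ran over HoxA from the site that also met Hoxa9 (chr6:51170001-51180000) to chr6:52310001-52320000 at Evx1, with 23 contacts against 3.33 expected. In the same library, 1 loop of 400 kb ran over HoxC with 63 contacts against 30.6 expected. None was called over HoxB or HoxD in any library, or over HoxA or HoxC in the other 3 libraries.

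HOX loops had a longer median span than the other loops in each of the 4 lists. The median span, between anchor midpoints, was 360 and 350 kb for HOX loops in the hCG libraries and 360 and 395 kb in the PMSG libraries, and for the other loops 150 and 160 kb in the hCG libraries and 175 and 195 kb in the PMSG libraries. Over the 4 libraries the means were 366 ± 19.7 kb for HOX loops and 170 ± 19.6 kb for the others (SD, n = 4), a difference of 196 kb that had the same sign in 4 of 4 libraries. The exact sign-flip test over libraries (two-sided) gave p = 0.125, the smallest that 4 libraries allow. Loops over 200 kb made up 89.5% and 76.2% of HOX loops in the hCG libraries and 78.9% and 85.7% in the PMSG libraries, and 37.9% and 40.1% of the others in the hCG libraries and 44.3% and 46.6% in the PMSG libraries. Within bins of 10 kb the mean median span was 391 kb for HOX loops and 150 kb for the others, and within 25 kb bins 597 and 275 kb. The 25 kb medians of HOX loops, from 5 to 8 loops per list, were 575 and 312.5 kb in hCG and 625 and 875 kb in PMSG. In those bins loops over 200 kb made up 87.5% and 62.5% of HOX loops in hCG and 71.4% and 80% in PMSG. The shares of the other loops were 55.0% and 61.0% in hCG and 71.9% and 61.3% in PMSG, so PMSG 1 showed no excess.

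The median observed over expected ratio was also higher at HOX loops in each of the 4 lists. Its median was 5.00 and 4.45 at HOX loops in the hCG libraries and 3.90 and 5.63 in the PMSG libraries, and at the other loops 3.96 and 3.92 in the hCG libraries and 3.68 and 4.16 in the PMSG libraries. The means over libraries were 4.75 ± 0.741 for HOX loops and 3.93 ± 0.198 for the others (SD, n = 4), a difference of 0.815 with the same sign in 4 of 4 libraries, and the exact sign-flip test (two-sided) again gave its smallest p of 0.125. The difference had the same sign within 10 kb bins (5.07 and 3.83) and within 25 kb bins (3.71 and 2.59). HOX pixels held fewer contacts, with medians of 24 and 27 in the hCG libraries and 29 and 23.5 in the PMSG libraries, where other pixels held 32 and 34 in the hCG libraries and 36 and 32 in the PMSG libraries. How far span and contact count account for the higher ratio was not tested.

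**Figure D4:**
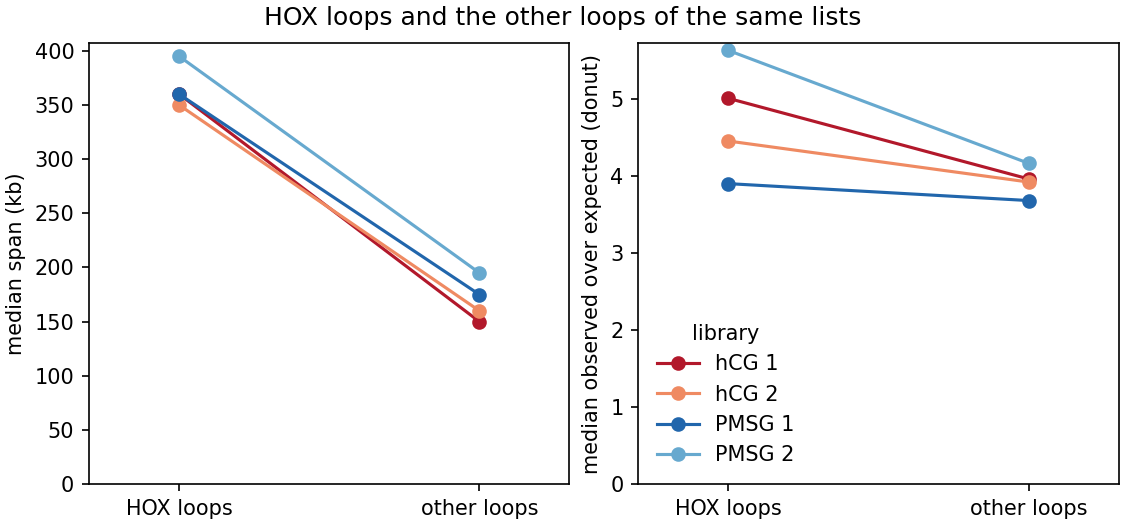
Median span in kb (left) and median observed over expected ratio (right) of HOX loops and of the other loops in each of the 4 lists, with a line joining the values of a library. HOX loops were at 350 to 395 kb and the others at 150 to 195 kb, and all 4 lines fall from HOX loops to other loops in both panels.

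The groups were then compared in the number, span and ratio of HOX loops, and none of the 3 differences passed a test. HOX loops made up 2.48 and 2.65 of each 1000 loops in the hCG libraries, against 2.29 and 2.14 in the PMSG libraries. The means were 2.56 ± 0.118 for hCG and 2.22 ± 0.102 for PMSG (SD, n = 2 each), and the groups did not overlap. The exact permutation test over libraries (two-sided) gave p = 0.333, the smallest that 2 libraries against 2 allow. The median span averaged 355 ± 7.07 kb in hCG and 377.5 ± 24.7 kb in PMSG (SD, n = 2 each), with an exact permutation p of 0.667. The median ratio averaged 4.73 ± 0.392 in hCG and 4.76 ± 1.222 in PMSG (SD, n = 2 each), with an exact permutation p of 1. The PMSG libraries lay on either side of both hCG libraries in the ratio, and a p of this size does not show that the groups act alike.

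The HOX lists of hCG 1 and PMSG 1 were the most alike. Of their 19 distinct HOX loops each, 16 were shared, a Jaccard index of 0.727, against 0.499 for all loops of that pair. The index of HOX loops was 0.538 between the hCG libraries and 0.571 between the PMSG libraries, against 0.547 and 0.534 for all loops. Libraries of a group thus shared no more HOX loops than this mixed pair. Over all loops the pairs within a group had the highest indices, and mixed pairs ran from 0.472 to 0.516. The lowest index of HOX loops, 0.481, was between hCG 2 and PMSG 1. Among the 13 distinct loops called in a single list, 2 and 7 were in the hCG libraries, against 3 and 1 in the PMSG libraries, with hCG 2 holding the most.

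The strength of loops was tested between hCG and PMSG with edgeR's quasi-likelihood test on the contacts of pixels called in the same bins in all 4 lists, with the donut expectation as offset. Of 435 such pixels, 0 (0%) passed an adjusted p of 0.05, 29 had an unadjusted p under 0.05, and DESeq2 called 0, with 1 at an unadjusted p under 0.05. No HOX loop was among the 435, since none of the 12 common HOX loops was called in the same bins in every list. Leaving out hCG 1, hCG 2, PMSG 1 or PMSG 2 brought 6 HOX pixels into a fit and called 0.124%, 0.262%, 0% and 0.337% of all pixels, with 0 HOX pixels among them. The largest difference was at the loop from the Hoxc8 side to Smug1 without PMSG 2, at a log2 ratio of hCG over PMSG of 0.84 ± 0.259 (SE) with an edgeR adjusted p of 0.378 over 890 pixels. In that fit PMSG 1 was the only PMSG library and is assumed to vary like the others. The other 5 HOX pixels had log2 ratios from -0.25 to 0.27 and edgeR adjusted p-values from 0.718 to 0.999.

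A comparison added after seeing the data took all 3859 distinct loops called in all 4 lists, whatever their bins. It used limma on the log2 ratio less its trend with span in the same library and bin size. Of the 3859, 0 (0%) passed an adjusted p of 0.05 and 214 had an unadjusted p under 0.05. Among the 12 common HOX loops 0 passed, and 0 had an unadjusted p under 0.05. Their differences, hCG minus PMSG, ran from -0.40 to 0.28 with a median of 0.04, against a median of 0.0083 over all loops, and 8 of 12 were above 0, against 51.8% of all loops. The standard errors were 0.231 to 0.266 and the limma adjusted p-values 0.934 to 0.9999. With a library left out, limma called 0%, 0.0259%, 0.0259% and 0.0259% of the loops and 0 of the 12.

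The lowest value was at the HoxD loop of 880 kb to Gm50595. Its adjusted log2 ratio was 0.40 and 0.36 in the hCG libraries, against 0.64 and 0.93 in the PMSG libraries, with no overlap of the groups (difference -0.40 ± 0.234 SE, limma adjusted p = 0.934). The highest was at the HoxD loop of 595 kb from the Hoxd13 side, at 0.20 and 0.14 in the hCG libraries, against -0.11 and -0.11 in the PMSG libraries (difference 0.28 ± 0.231 SE, limma adjusted p = 0.959). On this scale both hCG values were above both PMSG values at 1 of the 12 HOX loops, against 17.4% of all, and below at 3 of the 12, against 16.3% of all.

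Of the 5 HOX loops whose plain ratios did not overlap between the groups, 3 overlapped on the adjusted scale. The loop from Hoxa9 over 1050 kb was at 0.74 and 0.09 in the hCG libraries, against 0.39 and 0.22 in the PMSG libraries. The loop from the Hoxc8 side to Smug1 was at -0.48 and -0.09 in the hCG libraries, against -0.79 and 0.02 in the PMSG libraries. The third was the loop from the Hoxa13 region to Jazf1 over 560 kb. The HoxD loop of 450 kb turned round, with both hCG values below both PMSG values, at 0.07 and -0.07 in the hCG libraries, against 0.19 and 0.20 in the PMSG libraries. Only the HoxD loop of 360 kb kept its direction, at -0.09 and 0.05 in the hCG libraries, against 0.20 and 0.21 in the PMSG libraries, and its limma adjusted p was 0.989.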

How the data were processed

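Micro-C libraries were made with the Dovetail kit, with 2 to 3 technical replicates per sample that are not given apart, per the labels' protocols. Reads were processed with BWA and Juicer on build mm10, per the submitters' processing notes, and juicer_tools 1.22.01 wrote 1 loop list per library, per the file headers. The sources used here do not give the BWA version or the caller's settings. Deposited values are each pixel's observed contacts as raw counts, the expected contacts as a signal from 4 local neighbourhoods, and an FDR from each as a q-value, all below 0.1. A score deposited by the authors, which counts collapsed pixels, was not used.

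Samples were grouped by title. The 38 HOX genes, the gene lists and the tests were chosen with earlier results of these data known. Genes came from RefSeq on GRCm38.p6 (21631 protein-coding), with gene ends and no exons, so anchors were not assigned to exons or introns. The named genes were every HOX gene, every gene at a partner anchor, every HOX pixel tested and members of the gene lists, of which 1 is not reported here. Span runs from one anchor midpoint to the other. Loops formed connected sets when both midpoints lay within 20 kb, and a set is placed at its member in the smallest bins. Medians per library were compared by exact permutation and sign-flip tests, two-sided, and Poisson intervals are at 95%.

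The planned strength test on pixels called in the same bins held no HOX loop, so the limma comparison was added after seeing the data. Tools were edgeR 4.0.16, DESeq2 1.42.0 and limma 3.58.1 in R 4.3.3, with Benjamini-Hochberg adjustment over all pixels or loops, and Python 3.11.15 with pandas 2.3.3 and scipy 1.17.1. In simulated data for hCG against PMSG, edgeR recovered 20 of 40 pixels changed among 435, with 1 false call. Limma recovered 200 of 200 loops changed among 3859, with 4 false calls. The change planted for limma was larger than any difference seen at the common HOX loops, and every loop had the same spread. The changes planted for edgeR were larger than the log2 ratio of any HOX pixel fitted. Their spread was set to a fixed value and not estimated from these libraries. Neither recovery therefore tells how well differences of the size seen at HOX loops would be found. Alternatives were the anchor distance, the matching rule, the FDR, list length, bin size, expectation, library left out and replicate block. No genome sequence was used, so anchor sequences were not read.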

Additional observations from a re-analysis of the deposited data

How the results depend on the processing

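HOX loops per 1000 loops were higher in hCG under every alternative run, by 0.230 to 0.431, and by 0.264 to 0.431 with a library left out. Single bin sizes were not among the alternatives for this measure. In 5 kb bins, with 1 to 5 HOX loops per list, it was 0.93 and 1.15 in hCG, against 1.70 and 0.59 in PMSG. In 10 kb bins it was 2.79 and 3.22, against 2.14 and 3.12, so the groups overlapped in both bin sizes. In 25 kb bins it was 3.52 and 3.62, against 3.35 and 2.19, with no overlap. The hCG minus PMSG difference in median span, -22.5 kb, became 10 kb with anchors required to overlap a gene and 37.5 kb within 10 kb bins, and was -40 to -5 kb with a library left out. That in median ratio, -0.03, became 0.32 within 10 kb bins, 0.11 with the bottom left expectation and 0.0701 with the vertical one, and ran from -0.90 to 0.83 with a library left out, being 0.24 without hCG 2 and 0.83 without PMSG 2. The 12 HOX loops in all lists became 5 at an FDR of 0.01, 6 with lists of equal length and 5 with midpoints within 10 kb, where 1 HOX loop was lost, and were 11 to 13 with a library left out. The share of HOX loops in all lists was then 19.2%, 23.1% and 12.8%, against 19.7%, 21.8% and 22.5% of all distinct loops, which was below the background at the stricter FDR and the 10 kb match and above it with equal lists. It was also above with midpoints within 50 kb (50%, against 38.9%) and with overlapping anchors (21.1%, against 10.1%). The cause of these shifts was not tested. Strength calls over all pixels were 0 to 3 by edgeR and 0 to 1 by limma with a library left out, and 0 in HOX loops throughout. With a replicate block both fits called 0. Same-numbered libraries did not deviate together (correlation -0.02 over the 435 pixels and -0.04 over the 3859 loops), and they share only a number. The contacts per HOX pixel, 13 to 145, limit the precision of single ratios.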

Other observations

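Genes whose products work with HOX proteins or act on HOX clusters were looked at through loops with an anchor within 10 kb of them. Among all protein-coding genes, 28.1% had such a loop in all 4 libraries, 28.6% were at a loop called in all lists, 5.41% at a gained loop and 3.83% at a lost one. Of 9 cofactor genes, which code for homeodomain partners of HOX proteins, 4 (44.4%) had a loop in all 4 libraries, and Meis1, Meis2 and Meis3 were at loops called in all lists. Meis2 had 2 and 3 loops in the hCG libraries, against 3 and 3 in the PMSG libraries. Pbx3 was at a lost loop, with 0 and 0 loops in the hCG libraries, against 2 and 1 in the PMSG libraries.

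Of 18 Polycomb and trithorax genes, which keep HOX genes silent or active, 8 (44.4%) were at loops called in all lists, against 28.6% of all protein-coding genes, 0 at gained loops, against 5.41%, and 2 (11.1%), Ezh1 and Phc2, at lost loops, against 3.83%. Ezh1, a histone methyltransferase of Polycomb, had 2 and 3 loops in the hCG libraries, against 4 and 4 in the PMSG libraries. Of 10 genes for loop architecture proteins, 2 (20%, Stag1 and Wapl) were at loops in all lists, against 28.6%, and none was gained or lost. Of 25 genes found among the neighbours of the clusters, 17 (68%) were at loops in all lists, against 28.6%, 2 (8%, Tax1bp1 and Jazf1) at gained loops, against 5.41%, and 0 at lost loops, against 3.83%. Some of these neighbours hold partner anchors of HOX loops. The gained loops at Tax1bp1 and Jazf1 did not have a HOX anchor.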
